A study of Mus musculus with 6 samples.

Results

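A set of 10 genes of NAD synthesis and consumption was followed in primary bone-marrow-derived macrophages (BMDMs), taken as the rows of the deposited TPM table whose gene name is Nampt, Naprt, Nmnat1, Nadk, Nadk2, Cd38, Sirt1, Sirt2, Sirt3 or Parp1. All 10 were found among the 54532 genes of the table. Of them, 9 reached at least 1 TPM (transcript abundance scaled for gene length and library size) in at least 2 of the 6 libraries and were tested together with 12755 genes in all, and Cd38 did not. The macrophages came from wildtype C57BL/6 mice and were grown from bone marrow in medium conditioned by L929 cells; the labels name no age, sex or genetic modification. The Untr cells received neither agent. The LPS cells received LPS at 100 ng/ml, and 2 h later were harvested without having seen metformin. The Met + LPS cells were kept in metformin, at 5 mM, over the 6 h before the same LPS step. Each group had 2 poly-A RNA-seq libraries. No library from cells given metformin alone was analysed here, so the metformin comparison was made under LPS only.

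NAD is the hydride carrier of glycolysis and respiration and is also a substrate that some enzymes break down. Cells rebuild it from nicotinamide through Nampt and the Nmnat enzymes, from nicotinic acid through Naprt, and from tryptophan by a longer route, while NAD kinases turn it into NADP. Sirtuins, PARPs and the ectoenzyme Cd38 consume NAD and release nicotinamide, which the Nampt salvage step returns to the pool.

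The libraries held between 25457013 and 30762753 reads assigned to genes, as recovered from the TPM values and exon lengths. All 7 macrophage markers (Adgre1, Csf1r, Cd68, Itgam, Lyz2, Mertk, Fcgr1) passed the filter, with a summed level of 43710 to 45600 TPM in the Untr libraries, 34526 to 35264 in the LPS libraries and 28763 to 28884 in the Met + LPS libraries. Most of this sum was Lyz2 (mean 34912 TPM untreated). With LPS, 1 of the 7 (Adgre1) was called higher and 5 lower, and 4 and 1 after the rescaling described below. The shares of all tested genes were 16.2% and 60.1%, and 30.6% and 27.6% after rescaling. With Met + LPS against LPS, 0 were higher and 5 lower on both scales, beside 14.5% and 18.0% of all genes (15.6% and 17.4% rescaled). The 3 B cell and 3 fibroblast markers were under 1 TPM in every library and 2 of 3 erythroid markers were at 0. T and NK cell markers summed to 2.72 to 6.92 TPM, nearly all of it Cd4, and 4 of the 5 were under 1 TPM in every library. The 3 dendritic cell markers summed to 0.263 to 0.303 TPM in the Untr libraries, 2.00 to 2.13 in the LPS libraries and 1.98 to 2.06 in the Met + LPS libraries. Zbtb46 passed the filter only through its LPS libraries (1.53 and 1.14 TPM). Xcr1, at 3 and 1 reads untreated, passed only through its Met + LPS libraries (1.13 and 1.17 TPM). Both were called higher with LPS, but given how they entered the test these calls are no independent result. The summed level of 5 neutrophil markers was 27.2 to 30.9 TPM in the Untr libraries, 24.4 to 25.8 in the LPS libraries and 40.2 to 42.0 in the Met + LPS libraries, with Ly6g under 1 TPM throughout, and the part of these shifts in the results was not tested. In bulk RNA, fewer cells of a type and less RNA per cell cannot be told apart.

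The 2 members with higher transcript levels after LPS, Nampt and Sirt1, and Parp1, the most abundant member with lower levels on both scales used below, are shown by the 230 bases that end 21 bases before the start of transcription, from the RefSeq promoter table (GRCm38.p6), 5′ to 3′ on the gene's strand. Capitals mark matches to 2 of the 5 motifs searched, on both strands, in the 250 bases before the start.

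Nampt, chr12:32820085-32820314, + strand: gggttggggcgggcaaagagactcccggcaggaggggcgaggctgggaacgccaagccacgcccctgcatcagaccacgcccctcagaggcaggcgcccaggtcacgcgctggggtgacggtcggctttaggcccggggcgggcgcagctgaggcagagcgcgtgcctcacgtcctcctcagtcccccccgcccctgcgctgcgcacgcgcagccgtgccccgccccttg

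Sirt1, chr10:63339056-63339285, − strand: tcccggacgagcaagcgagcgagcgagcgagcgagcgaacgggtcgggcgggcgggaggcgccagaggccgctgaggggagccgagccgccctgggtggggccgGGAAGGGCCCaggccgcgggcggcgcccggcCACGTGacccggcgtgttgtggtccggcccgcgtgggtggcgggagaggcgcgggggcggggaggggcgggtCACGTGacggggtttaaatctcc

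Parp1, chr1:180568641-180568870, + strand: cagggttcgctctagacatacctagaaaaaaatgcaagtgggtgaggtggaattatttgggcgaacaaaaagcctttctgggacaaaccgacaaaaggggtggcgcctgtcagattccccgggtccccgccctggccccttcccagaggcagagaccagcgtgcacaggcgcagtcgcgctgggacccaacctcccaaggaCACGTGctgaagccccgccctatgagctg

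The Nampt and Sirt1 stretches lie inside the span of the annotated gene, and their overlap with its exons was not tested. The Parp1 stretch lies upstream of the annotated gene. The Sirt1 window held the E-box letters CACGTG at 115 to 110 and again at 43 to 38 bases before the start, and a kappaB match (GGGNNNTTCC) at 146 to 137 bases. The Parp1 window held CACGTG at 49 to 44 bases before the start, and the Nampt window held none of the 5 motifs. Of the members not shown, Sirt2 had a kappaB match at 245 to 236 bases before the start. A Nadk promoter held CACGTG at 40 to 35 bases. Of 32851 promoters in the table, 6.02% held CACGTG and 4.65% the kappaB letters. The other motifs, AP-1 (TGANTCA, 6.75% of promoters), CRE (TGACGTCA, 1.55%) and ISRE (TTTCNNTTTC, 2.98%), were found in none of the 8 members listed in the table. Naprt and Nadk2 are not listed there. GC content was 75.6% for Nampt, 79.2% for Sirt1 and 61.6% for Parp1, against a median of 52.4% over all promoters.

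**Figure D1:**
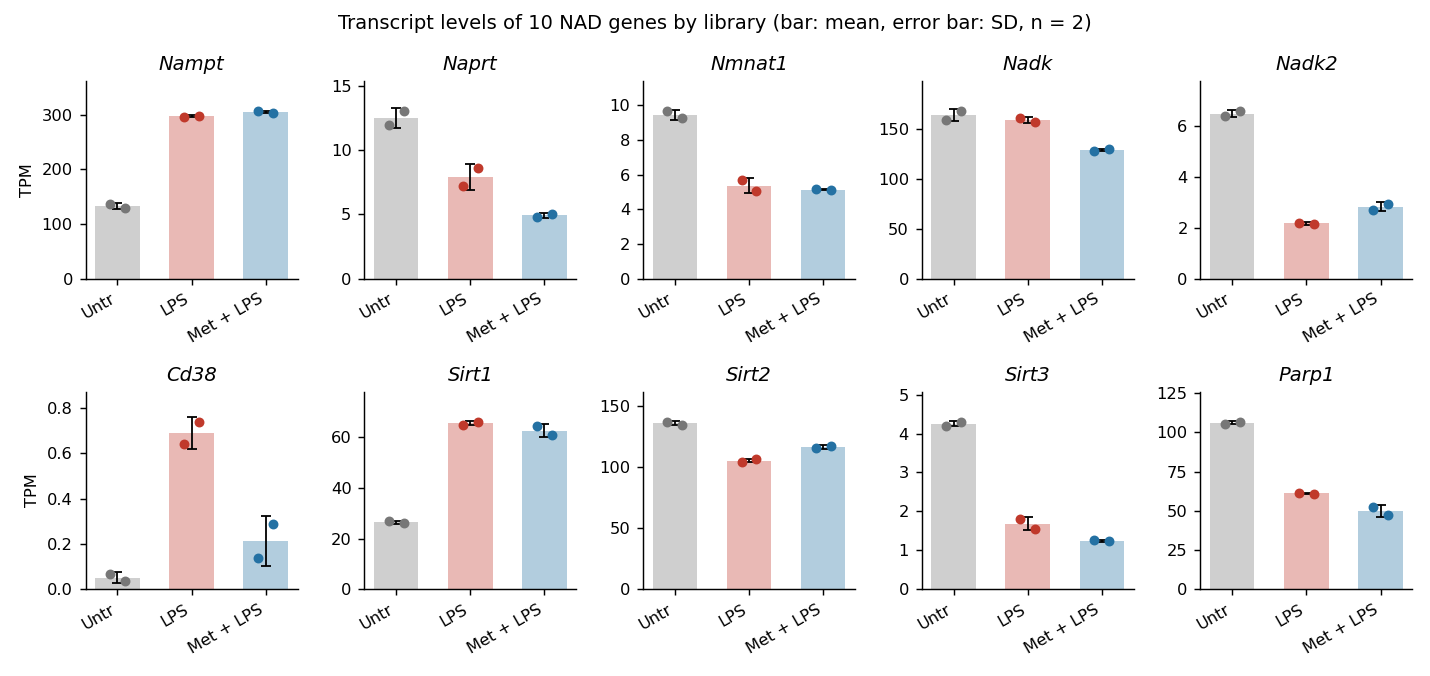
Transcript level in TPM (y axis, from 0, a scale of its own for each gene) of the 10 genes in untreated, LPS and Met + LPS macrophages, with points for the 2 libraries of a group, bars for the mean and error bars for the SD. Nampt and Sirt1 sit higher in all 4 libraries with LPS than in the untreated ones, Nadk2, Nmnat1, Sirt3 and Parp1 sit lower, and Cd38 stays below 1 TPM throughout.

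The first comparison, LPS against untreated cells, asked how the NAD genes stood in the baseline response to LPS. Nampt, the enzyme of the nicotinamide salvage step, and Sirt1, a nuclear deacetylase that consumes NAD, rose more than 2-fold. Nadk2, the mitochondrial NAD kinase, Sirt3, the main mitochondrial deacetylase, Parp1, the DNA damage-activated poly(ADP-ribose) polymerase, and the synthesis enzymes Nmnat1 and Naprt were lower on the TPM scale, and Nadk, the cytosolic NAD kinase, was level with the untreated cells on that scale. A gene was called changed at an adjusted p under 0.01 (limma on log2(TPM + 1), Benjamini-Hochberg adjustment over all tested genes), and all log2 fold changes below are on this scale, which understates the change of low genes.

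The scale bears on the size of each of these changes, and for Nadk, and also for Sirt2, on the direction. The median log2 fold change of all 12755 tested genes was −0.48 between LPS and Untr on the TPM scale, and −0.01 after the libraries were rescaled by their median ratio over genes. Of the 9 tested members, 2 were called higher and 6 lower on the TPM scale, where 16.2% of all tested genes were called higher and 60.1% lower. After rescaling, 4 members were called higher and 3 lower, with 30.6% and 27.6% of all genes. The median of the 9 members was −0.61 as deposited and −0.13 rescaled. None of the 9 reached an absolute log2 fold change of 2, the cut-off that the study set on DESeq2 fold changes. On the log2(TPM + 1) scale used here, 3.72% of all genes passed it in the higher and 2.37% in the lower direction. The count of members past it was also 0 after rescaling. It was 0 as well in limma at an unadjusted p under 0.05 and by voom, limma's test on the recovered reads.

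Nampt (ENSMUSG00000020572, chromosome 12, 32819545 to 32853349, + strand) measured 137 and 129 TPM in the untreated libraries, 296 and 298 TPM with LPS, and 306 and 303 TPM with Met + LPS. All 4 LPS-treated libraries were above both untreated ones. Its log2 fold change was 1.15 (SE 0.04, limma adjusted p 4.9e-07), and 1.68 after rescaling. It stood at percentile 92.4 of the tested genes' fold changes.

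Naprt (ENSMUSG00000022574, chromosome 15, 75890956 to 75894481, − strand), which starts the nicotinic acid branch, measured 12.0 and 13.0 TPM untreated, 7.17 and 8.59 with LPS, and 4.80 and 5.06 with Met + LPS. The 3 groups did not overlap and on the TPM scale stepped down from untreated to LPS to Met + LPS. The LPS change was −0.61 (SE 0.10, limma adjusted p 8.9e-04) on the TPM scale and −0.13 (adjusted p 0.277) after rescaling, so the call was lost there. It was also lost without untreated replicate 2 (−0.55, limma adjusted p 0.0139). Part of the Naprt exons, 11.8%, is shared with Eef1d on the same strand, so reads there cannot be assigned to either gene by position.

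Nmnat1 (ENSMUSG00000028992, chromosome 4, 149467572 to 149485202, − strand), the nuclear enzyme that joins nicotinamide mononucleotide to ATP, measured 9.66 and 9.24 TPM untreated, 5.67 and 5.05 with LPS, and 5.14 and 5.13 with Met + LPS. The untreated libraries were above the other 4, and the LPS and Met + LPS libraries overlapped. Its LPS change was −0.72 (SE 0.08, limma adjusted p 1.3e-04), and −0.25 (adjusted p 0.0226) after rescaling, short of the threshold.

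Nadk (ENSMUSG00000029063, chromosome 4, 155562378 to 155591001, + strand) measured 160 and 168 TPM untreated, 162 and 158 with LPS, and 128 and 130 with Met + LPS. Untreated and LPS libraries overlapped, and both Met + LPS libraries were below all others. The LPS change was −0.04 (SE 0.04, 95% interval −0.13 to 0.05, limma adjusted p 0.377) on the TPM scale and 0.49 (adjusted p 3.2e-05) after rescaling, a change of direction.

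Nadk2 (ENSMUSG00000022253, chromosome 15, 9071260 to 9110891, + strand) measured 6.40 and 6.60 TPM untreated, 2.21 and 2.14 with LPS, and 2.71 and 2.96 with Met + LPS. The groups did not overlap, and LPS was the lowest of the 3. Its log2 fold change, −1.24 (SE 0.09, limma adjusted p 1.7e-05) as deposited and −0.82 rescaled, was the lowest of the 9 members in both scales, at percentile 12.4 of all tested genes.

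Sirt1 (ENSMUSG00000020063, chromosome 10, 63319005 to 63381704, − strand) measured 26.8 and 26.1 TPM untreated, 65.0 and 66.1 with LPS, and 64.4 and 60.8 with Met + LPS. Untreated libraries were far below the other 4. The change was 1.28 (SE 0.04, limma adjusted p 7.6e-07), or 1.79 rescaled, and the mean with LPS was 2.48 times that of untreated cells, against 2.23 times for Nampt.

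Sirt2 (ENSMUSG00000015149, chromosome 7, 28766735 to 28788661, + strand), a mainly cytosolic deacetylase, measured 137 and 135 TPM untreated, 104 and 106 with LPS, and 115 and 117 with Met + LPS. The groups did not overlap. Its LPS change was −0.37 (SE 0.03, limma adjusted p 5.4e-05) as deposited but 0.16 (adjusted p 0.0055) after rescaling, the reverse direction, and its place at percentile 58.0 was close to the middle of the tested genes.

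Sirt3 (ENSMUSG00000025486, chromosome 7, 140863666 to 140882309, − strand) measured 4.21 and 4.30 TPM untreated, 1.80 and 1.56 with LPS, and 1.26 and 1.23 with Met + LPS. All LPS-treated libraries were below the untreated ones. It fell by 0.97 on the log2 scale (SE 0.11, limma adjusted p 1.4e-04), and by 0.58 after rescaling. Of its exons, 12.7% lies opposite exons of Ric8a and Psmd13, whose reads could not be told apart if counting ignored strand.

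Parp1 (ENSMUSG00000026496, chromosome 1, 180568924 to 180601254, + strand) measured 106 and 107 TPM untreated, 61.5 and 61.0 with LPS, and 52.6 and 47.2 with Met + LPS. The 3 groups did not overlap. The LPS change was −0.78 (SE 0.05, limma adjusted p 1.7e-05) as deposited and −0.26 (adjusted p 0.0048) rescaled.

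Cd38 (ENSMUSG00000029084, chromosome 5, 43868553 to 43912375, + strand), the ectoenzyme that hydrolyses NAD, was the lowest member, at 0.0676 and 0.0359 TPM untreated, 0.642 and 0.740 with LPS, and 0.136 and 0.290 with Met + LPS. These values correspond to 2 and 1 reads untreated, 19 and 21 reads with LPS, and 4 and 10 reads with Met + LPS. The groups did not overlap, and the LPS libraries were the highest. The summed reads per library size gave a ratio of LPS to untreated of 13.2 (exact 95% interval 4.21 to 66.7, 40 reads against 3), and of Met + LPS to LPS of 0.318 (0.160 to 0.597, 14 reads against 40). These intervals cover counting error only. In a limma fit with no filter, over 23749 genes, the Cd38 changes were 0.68 (adjusted p 0.0019) for LPS and −0.48 (adjusted p 0.0173) for Met + LPS against LPS, so the first passed the threshold there and the second did not.

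**Figure D2:**
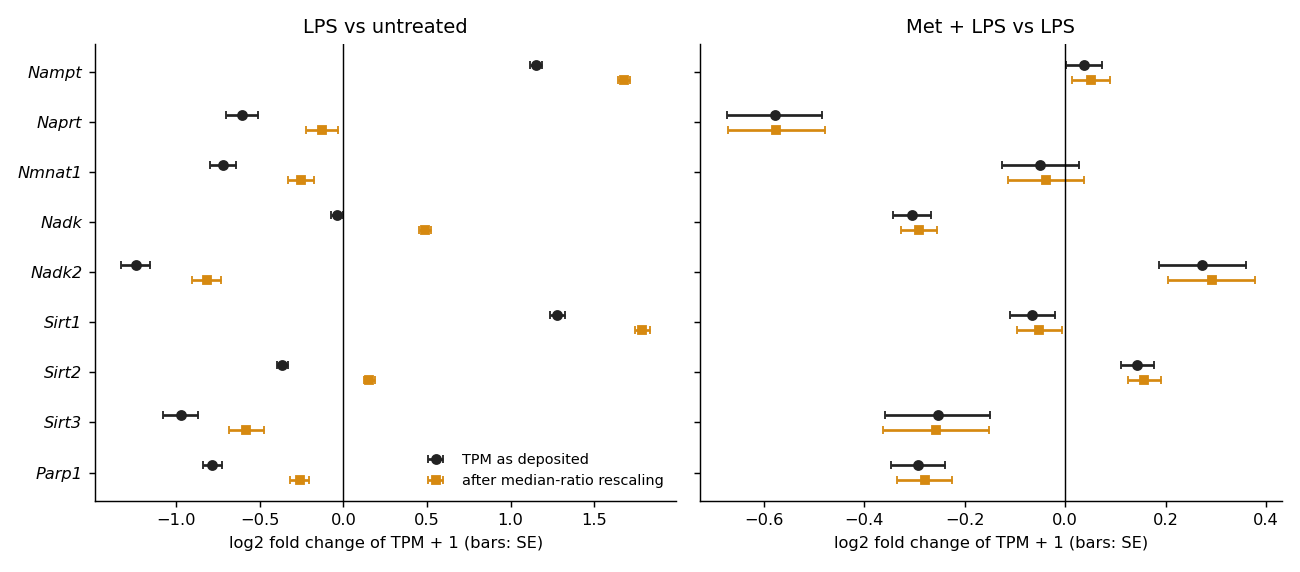
Log2 fold change of TPM + 1 (x axis) of the 9 tested members for LPS against untreated (left) and Met + LPS against LPS (right), with bars for the SE, as deposited (black circles) and after median-ratio rescaling (orange squares). On the left the rescaled points lie to the right of the deposited ones, with Nadk going from −0.04 to 0.49 and Sirt2 from −0.37 to 0.16, and on the right each pair nearly coincides.

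The second comparison, Met + LPS against LPS, asked what metformin pretreatment altered in the LPS response. Naprt, Nadk and Parp1 fell, each by less than 0.6 on the log2(TPM + 1) scale. For Naprt, at 4.80 to 8.59 TPM in these libraries, this scale understates the change, which was −0.67 by voom (voom adjusted p 8.4e-04). Nampt and Sirt1, which LPS had raised, were at 305 ± 2.14 and 62.6 ± 2.55 TPM (SD, n = 2) after metformin pretreatment, against 297 ± 1.82 and 65.5 ± 0.833 TPM with LPS alone. This comparison uses the same LPS libraries as the first. Here the median of all tested genes was close to 0 on both scales (−0.03 as deposited, −0.02 rescaled).

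Of the 9 tested members, 3 were called lower, with 18.0% of all genes called lower (17.4% rescaled), and 0 higher, with 14.5% of all genes called higher (15.6% rescaled). At an unadjusted p under 0.05, limma gave 2 higher members, Nadk2 and Sirt2, and voom called 1, Sirt2. None passed the study cut-off of 0.7 in either direction in limma at an adjusted p under 0.01, where 4.19% of all genes were higher and 4.09% lower. The count of members past it was also 0 at an unadjusted p under 0.05 in limma, and by voom. The median of the 9 members was −0.07.

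Naprt fell by 0.58 on the log2 scale (SE 0.10, limma adjusted p 0.0030), to 4.93 ± 0.187 TPM from 7.88 ± 1.0 TPM (SD, n = 2), and its place at percentile 7.40 was the lowest of the members. The adjusted p was 0.0144 without LPS replicate 2, 0.0224 without Met + LPS replicate 1 and 0.0161 without Met + LPS replicate 2, with changes of −0.46, −0.55 and −0.61, so the call was lost in each case. Nadk fell by 0.31 (SE 0.04, limma adjusted p 9.1e-04), from 160 ± 2.99 to 129 ± 1.10 TPM, and kept its call without any one library.

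Parp1 fell by 0.29 (SE 0.05, limma adjusted p 0.0050), from 61.3 ± 0.306 to 49.9 ± 3.86 TPM (SD, n = 2). Without LPS replicate 1 its adjusted p was 0.0295, without LPS replicate 2 0.0275, and without Met + LPS replicate 2 0.0118, with changes of −0.29, −0.30 and −0.22. In each of these settings the LPS values stayed above the Met + LPS values, and the call was lost.

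Nadk2 was at 2.84 ± 0.173 TPM with metformin and 2.17 ± 0.0464 without, a change of 0.27 (SE 0.09, limma adjusted p 0.0394) that missed the threshold. Sirt2 was at 116 ± 1.50 TPM against 105 ± 1.42, a change of 0.14 (SE 0.03) whose limma adjusted p was 0.0116 as deposited, 0.0088 rescaled and 0.0058 by voom. On the TPM scale both Nadk2 and Sirt2 had their metformin libraries above their LPS libraries and below the untreated ones. After rescaling, Met + LPS stood above Untr for Sirt2, by 0.31.

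Nampt changed by 0.04 (95% interval −0.05 to 0.12, limma adjusted p 0.438), Sirt1 by −0.07 (−0.17 to 0.04, adjusted p 0.266), Nmnat1 by −0.05 (−0.23 to 0.14, adjusted p 0.628) and Sirt3 by −0.25 (−0.51 to −0.0012, adjusted p 0.0898) in the limma fit. On the log2(TPM + 1) scale these intervals lie within the 0.7 cut-off for the 4 genes. For Sirt3, at 1.23 to 1.80 TPM in these libraries, this scale understates the change, which was −0.43 by voom (adjusted p 0.0518), so its interval does not bound the change in TPM at 0.7.

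Against untreated cells, the Met + LPS libraries gave 2 higher members, Nampt at 1.19 and Sirt1 at 1.21 on the log2 scale, and 7 lower members, with 16.3% of all tested genes higher and 58.8% lower. After rescaling the counts were 4 and 4, with 33.4% and 29.7% of all genes, and Nadk (−0.34 as deposited, 0.19 rescaled) and Sirt2 (−0.22 and 0.31) turned direction. Naprt (−1.19, rescaled −0.70), Nadk2 (−0.97, rescaled −0.52), Sirt3 (−1.23, rescaled −0.84) and Parp1 (−1.08, rescaled −0.54) were called lower on both scales (limma). Nmnat1 was at −0.77 as deposited and −0.29 rescaled, where it missed the threshold with an adjusted p of 0.0120. All libraries of this comparison also enter the other comparisons.

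**Figure D3:**
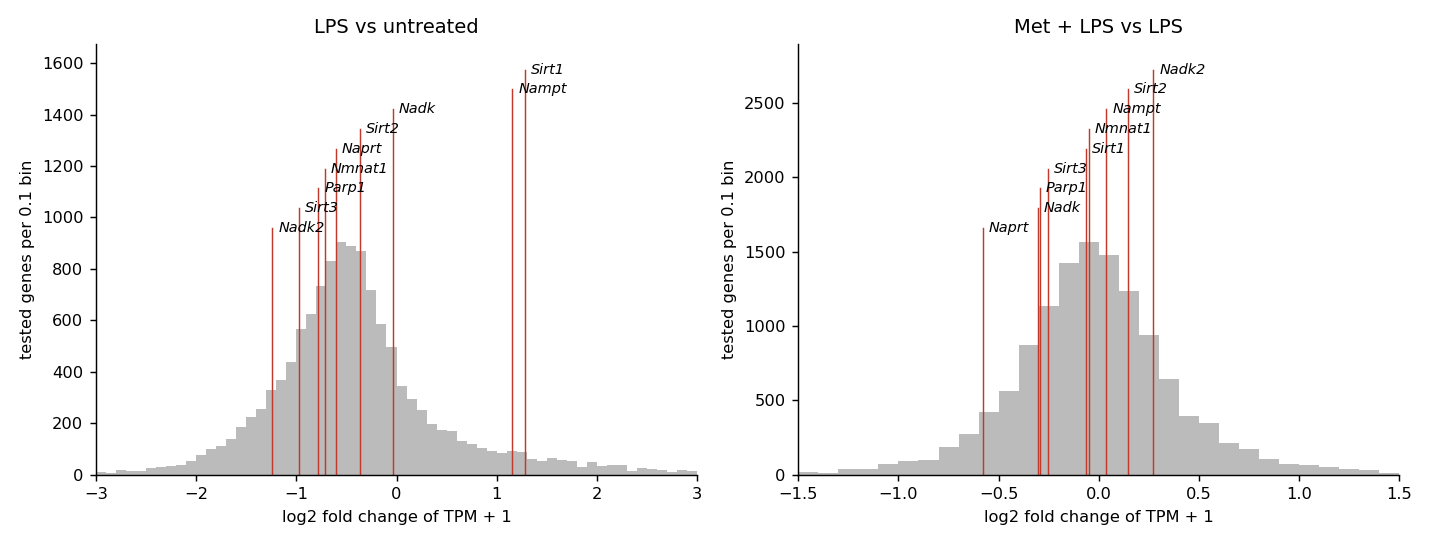
Histograms of the log2 fold change of TPM + 1 of all tested genes (x axis, bins of 0.1; y axis, genes per bin) for LPS against untreated (left) and Met + LPS against LPS (right), with red lines at the 9 tested members and the x axis limited to the range shown. On the left Nampt and Sirt1 lie in the upper tail at percentiles 92.4 and 93.2 and Nadk2 in the lower part at 12.4, and on the right Naprt lies furthest left at 7.40.

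The members were also set side by side as TPM, which is per length. In untreated cells the order from the top was Nadk, Sirt2, Nampt, Parp1, Sirt1, Naprt, Nmnat1, Nadk2, Sirt3 and Cd38, and only Sirt2 (136 ± 1.57 TPM) and Nampt (133 ± 5.14 TPM; SD, n = 2) overlapped in their libraries. With LPS, Nampt (297 TPM) moved to the top, above Nadk (160 TPM), and Sirt1 (65.5 TPM) stood above Parp1 (61.3 TPM). With Met + LPS the order was the same except that Nmnat1 (5.14 ± 0.00413 TPM) stood above Naprt (4.93 ± 0.187 TPM). In neither LPS group did any 2 neighbours overlap.

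The tested genes with profiles nearest to Nampt over the 6 libraries, by Euclidean distance between log2(TPM + 1) values centred on each gene's mean, were Vps54 (distance 0.0663), Rnf2 (0.0737) and Dirc2 (0.113). Vps54, a subunit of a Golgi tethering complex, went from 22.0 TPM untreated to 49.5 with LPS and 50.4 with Met + LPS. Rnf2, a Polycomb ubiquitin ligase, went from 37.8 to 86.4 and 88.2 TPM, and Dirc2, a lysosomal membrane transporter, from 22.0 to 53.9 and 51.7 TPM.

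Other genes of NAD metabolism, with the other sirtuin and PARP genes taken by family membership alone, were counted from lists of 48 genes, of which 32 passed the filter. With LPS, 10 were called higher and 17 lower on the TPM scale, and 11 and 11 after rescaling, beside the shares of all genes given above. With Met + LPS against LPS, 5 were higher and 8 lower on both scales, beside 14.5% and 18.0% of all tested genes (15.6% and 17.4% rescaled). The median of the 32 genes was −0.50 for LPS (−0.03 rescaled), against −0.48 (−0.01 rescaled) for all tested genes. For metformin it was −0.12 (−0.11 rescaled), against −0.03 (−0.02 rescaled).

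Of the de novo route from tryptophan, 3 of 10 genes passed the filter, and Ido1, Tdo2, Kmo, Kynu, Haao, Acmsd and Qprt did not. Nadsyn1, the synthetase that both this route and the Naprt branch end in, was called lower with LPS, and after rescaling it lost that call. Ido2 passed the filter only through its LPS libraries (1.30 and 1.06 TPM, against 0.109 and 0.154 untreated), so its higher call with LPS, which is among the 10 above, is no independent result. That call was also lost with no filter and without any 1 of the 4 untreated and LPS libraries. None of the 3 was called with metformin in limma, where 2 (Ido2 and Nadsyn1) were lower at an unadjusted p under 0.05. Voom called 1 lower, Ido2 (voom adjusted p 0.0019). Because Ido2 entered the test through its LPS libraries, its lower level with Met + LPS than with LPS is no independent result either. Nadsyn1 measured 7.92 and 8.91 TPM untreated, 4.69 and 4.52 with LPS, and 3.24 and 3.62 with Met + LPS. In the riboside and mononucleotide branch, 4 of 8 genes were tested, and Nmrk2, Nmnat2, Nt5e and Slc12a8 were below the filter. With LPS, 1 was called higher and 3 lower on both scales. The shares of all tested genes were 16.2% and 60.1% on the TPM scale, and 30.6% and 27.6% after rescaling.

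Pnp, the purine nucleoside phosphorylase that also splits nicotinamide riboside, measured 30.8 and 32.6 TPM untreated, 129 and 133 with LPS, and 84.3 and 85.4 with Met + LPS. It rose by 2.02 on the log2 scale with LPS (SE 0.04, limma adjusted p 7.8e-08) and fell by 0.62 with metformin (SE 0.04, adjusted p 7.8e-05), with the Met + LPS libraries between the other groups. Pnp has a close neighbouring copy, Pnp2, so reads may be split between them. Nmnat3, the mitochondrial partner of Nmnat1, went from 10.9 ± 0.744 TPM to 3.50 ± 0.464 with LPS (log2 change −1.40, limma adjusted p 1.9e-05) and was at 4.35 ± 0.243 with Met + LPS (SD, n = 2).

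Among the other sirtuins, Sirt4, Sirt5, Sirt6 and Sirt7 were all called lower with LPS, with a median of −1.10 as deposited and −0.67 rescaled, where Sirt4 and Sirt7 kept the call. Of all tested genes, 60.1% were called lower on the first scale and 27.6% on the second. Sirt5 passed the filter through its untreated libraries (3.04 and 2.66 TPM), outside which only LPS replicate 2 (1.35 TPM) reached 1 TPM. Its lower call with LPS, which is among the 17 pathway genes above, is therefore no independent result. Sirt4 fell by 1.6 on the log2 scale, from 8.93 ± 1.02 to 2.27 ± 0.265 TPM (SD, n = 2, limma adjusted p 1.9e-05). Sirt1 was thus the 1 member of the 7-gene family with a higher level on the TPM scale, and with Sirt2 1 of 2 after rescaling. None of the 4 other sirtuins was called with metformin by limma, at a median of −0.16, and the count was also 0 at an unadjusted p under 0.05 and 0 by voom.

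The PARP family was mixed. Of the 15 other members, all tested, 8 rose and 5 fell with LPS (median 0.44, rescaled 0.95), and 4 rose and 7 fell with metformin (median −0.23, rescaled −0.22). The shares of all tested genes were 16.2% higher and 60.1% lower with LPS, and 14.5% higher and 18.0% lower with metformin. After rescaling the LPS counts were 9 and 4, beside 30.6% and 27.6% of all genes, with Parp4 (−0.14 as deposited, 0.37 rescaled) joining the first and Tnks2 leaving the second. The 4 genes of the family with the largest LPS increases, the mono-ADP-ribosyltransferases Tiparp and Parp14 and the interferon-associated Parp9 and Parp12, were all called lower with metformin than with LPS alone. The gene with the next largest LPS increase, the zinc finger antiviral protein Zc3hav1, was at 104 TPM untreated, 274 with LPS and 271 with Met + LPS, changes of 1.38 and −0.01 (limma adjusted p 0.716 for the second).

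Tiparp measured 27.0 and 26.9 TPM untreated, 407 and 432 with LPS, and 290 and 271 with Met + LPS. Its LPS change was 3.91 (SE 0.05, limma adjusted p 8.2e-09) and its metformin change −0.58 (SE 0.05, adjusted p 1.6e-04). Parp14 went from 96.5 ± 1.07 TPM to 1045 ± 0.241 with LPS and 725 ± 18.6 with Met + LPS (SD, n = 2), changes of 3.42 and −0.53. Parp9 (48.9, 210 and 139 TPM) changed by 2.08 and −0.59, and Parp12 (71.6, 223 and 140 TPM) by 1.63 and −0.67.

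Parp8 and Parp3 were the PARP genes past the 0.7 cut-off in the lower direction with metformin. Parp8 measured 11.8 and 11.7 TPM untreated, 22.8 and 22.0 with LPS and 11.4 and 12.9 with Met + LPS, and its changes were 0.87 and −0.83 (limma adjusted p 3.1e-05 and 1.8e-04). On the TPM scale its metformin libraries spanned the untreated ones, while after rescaling Met + LPS stood above Untr by 0.54 (limma adjusted p 4.6e-04). Parp3, which acts in DNA break repair, measured 29.3 and 31.8, then 40.2 and 43.3, then 19.5 and 24.0 TPM in the same order, with changes of 0.44 (adjusted p 0.0051) and −0.92 (adjusted p 5.2e-04). The LPS call of Parp3 was lost when any 1 of the 4 untreated and LPS libraries was left out, at limma adjusted p values of 0.0157 to 0.0505.

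Parp16, a membrane-anchored enzyme of the endoplasmic reticulum, went the other way. It measured 4.67 and 5.17 TPM untreated, 1.25 and 1.30 with LPS, and 3.20 and 2.70 with Met + LPS, changes of −1.38 (limma adjusted p 3.0e-05) and 0.79 (adjusted p 0.0014, and 0.0107 without Met + LPS replicate 1). Parp6 (10.5, 5.35 and 7.17 TPM) and the tankyrase Tnks2 (56.9, 39.1 and 49.9 TPM) changed by 0.36 and 0.34 with metformin (limma adjusted p 0.0041 and 0.0012), and the Tnks2 LPS change of −0.53 was −0.01 after rescaling. Without LPS replicate 2, Tnks2 had an adjusted p of 0.0101, and Parp6 lost its call without any 1 of the 4 libraries compared, at 0.0149 to 0.0235.

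**Figure D4:**
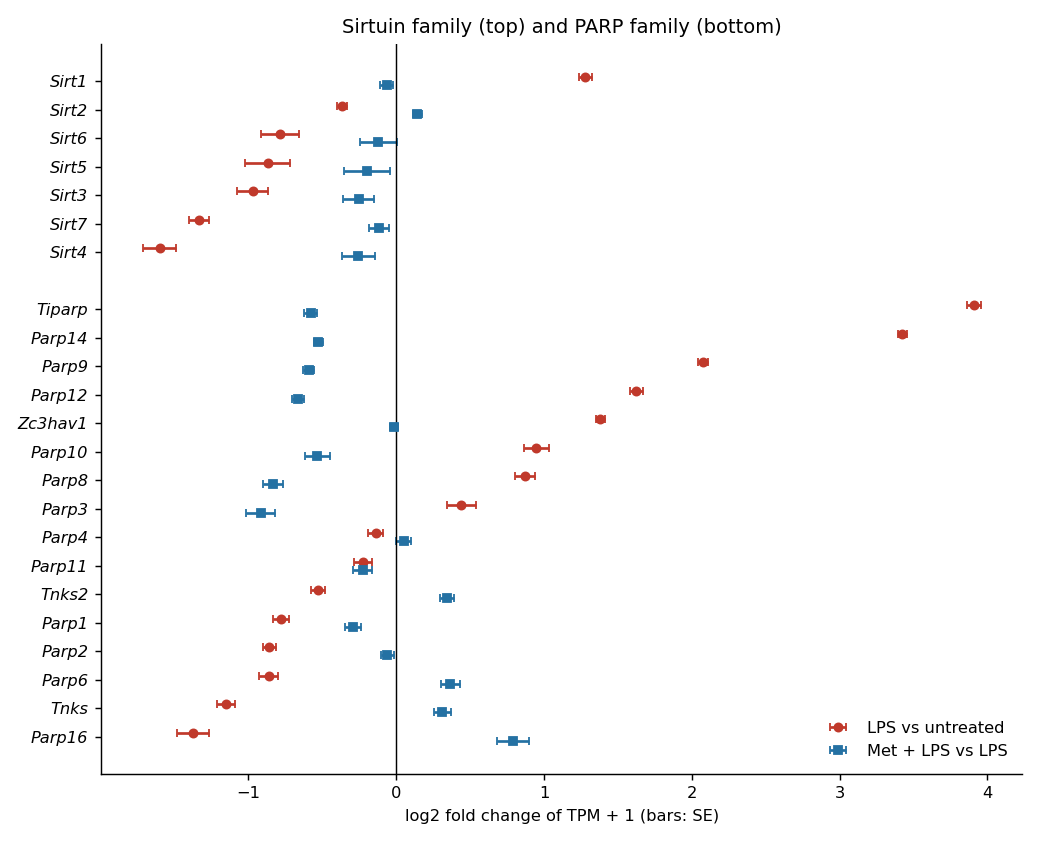
Log2 fold change of TPM + 1 (x axis, bars for the SE) of the 7 sirtuin genes (top) and 16 PARP genes (bottom), ordered by the LPS change, for LPS against untreated (red circles) and Met + LPS against LPS (blue squares), as deposited. On this scale Sirt1 alone of the sirtuins lies right of 0 with LPS (after rescaling Sirt2 does too, at 0.16), and Tiparp, Parp14, Parp9 and Parp12 lie furthest right with LPS and left of 0 with metformin.

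Of the genes that remove nicotinamide or handle NAD in mitochondria, Nnmt, Nnt and Aox1 were below the filter, and the mitochondrial NAD transporter Slc25a51 was at 56.4 TPM untreated, 42.9 with LPS and 43.9 with Met + LPS. Its LPS change was −0.39 on the TPM scale, where it was called lower, and 0.13 after rescaling, where it was not called. The second NAD-hydrolysing ectoenzyme, Bst1, was at 2.54, 2.35 and 2.31 TPM in the 3 groups, with limma adjusted p values of 0.613 for LPS and 0.936 for metformin, and Sarm1 was below the filter. Of the enzymes that remove ADP-ribose, 4 of 5 were tested. With LPS, 3 (Parg, Adprs, Oard1) were called lower on the TPM scale, beside 60.1% of all tested genes. After rescaling 2 of these (Adprs, Oard1) were called lower, beside 27.6% of all tested genes. With metformin limma called none of the 4, with 2 higher (Parg, Adprs) and 1 lower (Macrod1) at an unadjusted p under 0.05, and voom also called 0.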

How the data were processed

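The 6 libraries of poly-A RNA (TruSeq kit, strand not stated) came from BMDMs. The authors aligned reads to GRCm38 with STAR 2.6.1d, counted them with featureCounts of Subread 1.6.3, and deposited TPM values per gene, which were used here as deposited. The 12755 genes that reached 1 TPM in 2 or more libraries entered a limma fit (version 3.58.1, R 4.3.3). It used log2(TPM + 1), all 3 groups and a mean-variance trend. A gene was called at an adjusted p under 0.01 (Benjamini-Hochberg). The study's own fold cut-offs of 2 and 0.7 were applied on the log2 scale beside it. Rescaling divided each library by its median ratio over genes. Scripts were tested on simulated data.

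Reads were recovered from TPM and GENCODE vM21 exon lengths (54495 of 54532 genes matched), and 97.4 to 97.8% of values below 500 reads came out whole within 0.05. The annotation was not the one the authors used. Coordinates are from GENCODE vM21, on GRCm38.

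The labels number the replicates but do not say that they came from separate animals, and the methods describe cells seeded in duplicate, so p-values measure the spread between these libraries, which may be technical. A permutation test of 2 libraries against 2 cannot go below p = 0.333 (exact, two-sided). The members and gene lists were chosen with earlier results of these data known. The text names all members, and of the other listed genes those past the study cut-offs or among the 3 largest called increases or decreases of the LPS and metformin comparisons. A few further genes (Nadsyn1, Ido2, Sirt7, Parp4, Zc3hav1, Slc25a51, Bst1 and others given by name or level only) were named after their values were seen. Alternatives were another pseudocount, other filters, no trend, fewer groups, voom, rescaling, a replicate block, another threshold and leaving out each library.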

Additional observations from a re-analysis of the deposited data

How the results depend on the processing

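Rescaling by the median ratio moved the counts of called genes most. For LPS against Untr it gave 4 members higher and 3 lower in place of 2 and 6, and 11 other pathway genes lower in place of 17, and for Met + LPS against Untr it gave 4 higher and 4 lower in place of 2 and 7. In both comparisons against Untr, where the median was clearly below 0, it moved every tested member toward higher values. For Met + LPS against LPS the shifts were small and not all upward, with Sirt3 at −0.254 as deposited and −0.257 rescaled. Among the genes named in the text, those it turned included Nadk (0.49), Sirt2 (0.16), Slc25a51 (0.13) and Parp4 (0.37) for LPS against Untr. Bst1, Macrod1 and the macrophage markers Csf1r, Cd68, Itgam, Lyz2 and Fcgr1 also turned there. For Met + LPS against Untr they included Nadk (0.19), Sirt2 (0.31), Parp3 (0.043), Tnks2 (0.35), Slc25a51 (0.18) and Parp4 (0.44). Parg, Bst1 and the markers Adgre1, Cd68, Itgam and Elane also turned in that comparison. For Met + LPS against LPS, 1 member (Sirt2) was called higher with a filter of 5 TPM, with rescaling or with voom, and 2 at an adjusted p under 0.05, in place of 0. The 3 lower members became 1 (Nadk) in a fit of the compared groups only and with no filter, and 1 to 2 when an LPS or Met + LPS library was left out, with 1 without LPS replicate 2 and 1 without Met + LPS replicate 2. The 5 pathway genes called higher became 3 without a trend, 2 in a fit of the compared groups only, 1 with no filter and 1 to 3 when an LPS or Met + LPS library was left out. A change of direction also came without LPS replicate 1 for Nmnat1 (0.020, against a range of −0.12 to 0.020 when a library was left out, Met + LPS against LPS) and without Met + LPS replicate 2 for Parp8 (−0.046, with a range of −0.046 to 0.12, Met + LPS against Untr). Apart from the effect of rescaling and of fewer libraries or genes, the cause was not tested.

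Over all alternatives, 102 of the members' LPS values kept direction and side of the threshold, 3 lost the call and 2 turned. For Met + LPS against LPS, 92 kept both, 11 lost the call, 3 gained it and 1 turned, and for Met + LPS against Untr 104 kept both, 1 lost the call and 2 turned.

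With the replicate number as a replicate block, the members' counts stayed at 2 higher and 6 lower for LPS, 0 and 3 for Met + LPS against LPS, and 2 and 7 for Met + LPS against Untr, and the pathway genes called higher with metformin went from 5 to 4. Deviations of same-numbered libraries from their group means correlated at −0.0037, 0.028 and 0.0062 over genes, so the numbers were not taken to pair the libraries. Depth limits Cd38, at 1 to 21 reads a library, and 2 libraries a group limit every interval.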
